A study of Mus musculus with 12 samples.

Results

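Knockout 5 and 6 are 2 RNA-seq libraries of primary colonic myofibroblasts lacking TNFR1, described here across all genes against knockout 1 to 4, the other 4 libraries with the same labels. The 2 sets were chosen by their profiles in these same counts, so every difference between them is a description, and none was tested. The 6 knockout libraries are TNFR1-/- and the 6 reference libraries, control 1 to 6, are TNFR1+/-, so the controls lack 1 copy of the gene themselves. All cells came from the distal colon of 16-week-old C57BL/6 mice, were used untreated at passage 6 to 8 after expansion with epidermal growth factor, and were harvested from Matrigel on day 5. The deletion is present in every cell of a TNFR1-/- mouse and is not restricted to the mesenchyme. Nothing in the labels says which libraries came from separate mice or cultures, or what set knockout 5 and 6 apart, so animal, culture and passage cannot be told apart from library preparation.

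Colonic myofibroblasts lie under the crypt epithelium, build collagen-rich matrix, contract through smooth muscle actin, and secrete Wnt, R-spondin, BMP and EGF family signals to epithelial stem cells. In culture they can divide or settle into a matrix-making and contractile state. TNFR1, encoded by Tnfrsf1a, binds tumor necrosis factor at the cell surface and activates NF-kB or cell death.

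Libraries held 6543006 to 9936996 counts in the knockout group, with 9410143 in knockout 5 and 9519279 in knockout 6, and 11890737 to 16458674 in the control group. Levels are given in CPM, the usual unit of depth-scaled counts, and differences as log2, knockout 5 and 6 minus knockout 1 to 4. Tnfrsf1a transcript was at 40.3, 44.2, 45.7 and 41.4 CPM across knockout 1 to 4, at 46.4 and 45.3 CPM across knockout 5 and 6, and at 55.0 to 81.6 CPM in the controls. All 6 knockout libraries lay below all 6 controls for this gene, and the sets overlapped each other (log2 difference 0.10). Which part of the gene is deleted is not given in the sources used here, so the remaining counts do not check the deletion itself. The Y-linked gene Ddx3y was at 95.04 to 107 CPM across knockout 1 to 4 and 77.7 and 68.4 CPM across knockout 5 and 6, and Xist was at most 0.314 CPM in any knockout library. None of the 4 measured sex-linked genes passed 2-fold. Control 6 stood apart from control 1 to 5, with 55.0 CPM of Tnfrsf1a against 73.8 to 81.6 CPM. Values that involve it are given beside some of the results only. Among genes printed below without control values, Meg3 was at 1186 CPM in control 6 against 126 to 139 CPM in control 1 to 5. Efemp1 was at 296 CPM against 59.6 to 74.2 CPM in the same libraries. Knockout 3 differed from the other libraries of its set by transcript length, with a median log2 difference of 0.19 in the shortest and -0.21 in the longest of 5 length classes.

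The sets differed over a large share of the transcriptome. A gene entered the comparison when the mean of the 2 set means was at least 2 CPM, which left 11282 of 24411 symbols; these are the measured genes below. It was counted as higher or lower when the mean log2 levels differed by at least 1 (2-fold) and the 2 libraries did not overlap the 4. By this rule 886 genes (7.85%) were higher and 1239 genes (11.0%) were lower in knockout 5 and 6. Counts of list members below are to be read beside these shares. At least 4-fold, 78 were higher and 262 lower. Because the sets were chosen from these profiles, these counts are their size and carry no support of their own. Of the higher genes 92 were under 2 CPM on average in knockout 1 to 4, and of the lower genes 199 were under 2 CPM across knockout 5 and 6, so they entered through the set where they were high. Among the higher ones named below, these include Wt1, Clu, Vgf, Mmp13, Il6, Wnt11, Tcf7, Lef1, Nog, Areg and Hist1h1e. Among the lower ones they include Ano1, Itgbl1, Adam33, Mrgprf, Igsf10, Plin4, Itga8, Tm7sf2, Kcnj8, Tbxa2r, Oas2, Iigp1, Rspo2 and Rspo3. The 50 genes nearest to the 2-fold line lay between 1.00 and 1.01 in log2 size just inside it and between 0.99 and 1.00 just outside it.

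Within a set the libraries were close to each other. Knockout 5 and 6 differed from each other by 2-fold or more in 88 of the 11282 genes (0.780%), and the 6 pairs among knockout 1 to 4 did so in 32 to 110 genes. A library of one set differed from a library of the other set in 2209 to 2295 genes. The median standard deviation of log2 CPM over knockout 1 to 4 was 0.13 and the median gap between knockout 5 and 6 was 0.10, against a median size of the difference between sets of 0.47. The median signed difference over all genes was 0.02, so the scaled profiles were centred on each other.

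**Figure D1:**
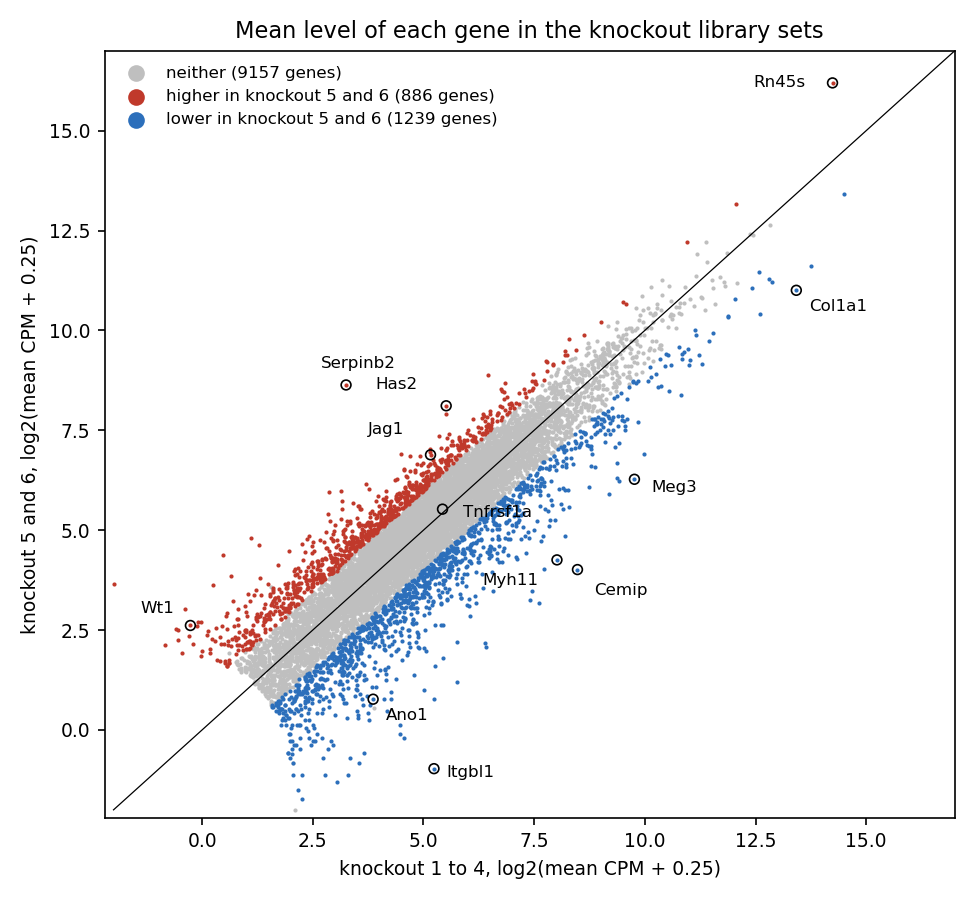
Mean level of each of the 11282 genes in knockout 1 to 4 (x axis) and knockout 5 and 6 (y axis), as log2 of the mean CPM plus 0.25, each point a gene. Red points are the 886 genes higher and blue points the 1239 genes lower in knockout 5 and 6, the line marks equal levels, and Serpinb2 and Itgbl1 lie among the points farthest from it.

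The 5 genes that mark the sets all met the rule, as they were picked to do. Serpinb2 encodes plasminogen activator inhibitor type 2, an inhibitor of the proteases that activate plasmin. It was at 9.96, 8.12, 7.23 and 11.8 CPM across knockout 1 to 4, 430.3 and 364 CPM across knockout 5 and 6, and 0.571 to 2.49 CPM in the controls. Both libraries of the smaller set lay far above the other 10, with a log2 difference of 5.41 (42.6-fold). Jag1, a membrane-bound ligand of Notch receptors, was at 34.0, 36.7, 36.0 and 35.3 CPM across knockout 1 to 4 and at 124 and 112 CPM across knockout 5 and 6 (log2 difference 1.73). The controls, at 7.09 to 11.2 CPM, were below both knockout sets. Wt1, a zinc finger transcription factor of mesothelium, was at 0.415, 0.762, 0.628 and 0.526 CPM across knockout 1 to 4 and 6.27 and 5.48 CPM across knockout 5 and 6, from 60 and 53 counts in the latter (log2 difference 3.01). Controls were between the sets, at 0.765 to 2.57 CPM. Ano1, a calcium-activated chloride channel used as a marker of interstitial cells of Cajal, was at 13.3, 14.5, 12.4 and 17.1 CPM across knockout 1 to 4 and 1.36 and 1.55 CPM across knockout 5 and 6 (log2 difference -3.14). Control 6 held 8.67 CPM of Ano1 against 0.218 to 1.25 CPM in control 1 to 5.

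The fifth marker, Rn45s, is the precursor of the ribosomal RNAs, which oligo-dT selection largely removes. Its share of all counts was between 1.63% and 2.097% for knockout 1 to 4. Knockout 5 had 7.01% and knockout 6 had 8.25%, with 95% Wilson bounds of 6.99% and 7.03% for the first and 8.23% and 8.26% for the second. Controls held 0.351% to 1.19%. The intervals cover counting error only. Lars2, the mitochondrial leucyl-tRNA synthetase gene, was also higher, at 4349.9 and 5132 CPM across knockout 5 and 6 against 1466 to 2583 CPM across knockout 1 to 4. The controls held 353 to 833 CPM of Lars2. The 6 knockout libraries ranked in the same order for Lars2 and Rn45s, and control 6 was the lowest library for both. Whether the efficiency of messenger RNA selection had a part in the differences below was not tested. Of the 11 listed RNA species that messenger RNA selection should remove, 3 passed the filter, and Rn45s was the only one past 2-fold. With Rn45s left out of the totals the counts were 817 higher and 1307 lower.

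**Figure D2:**
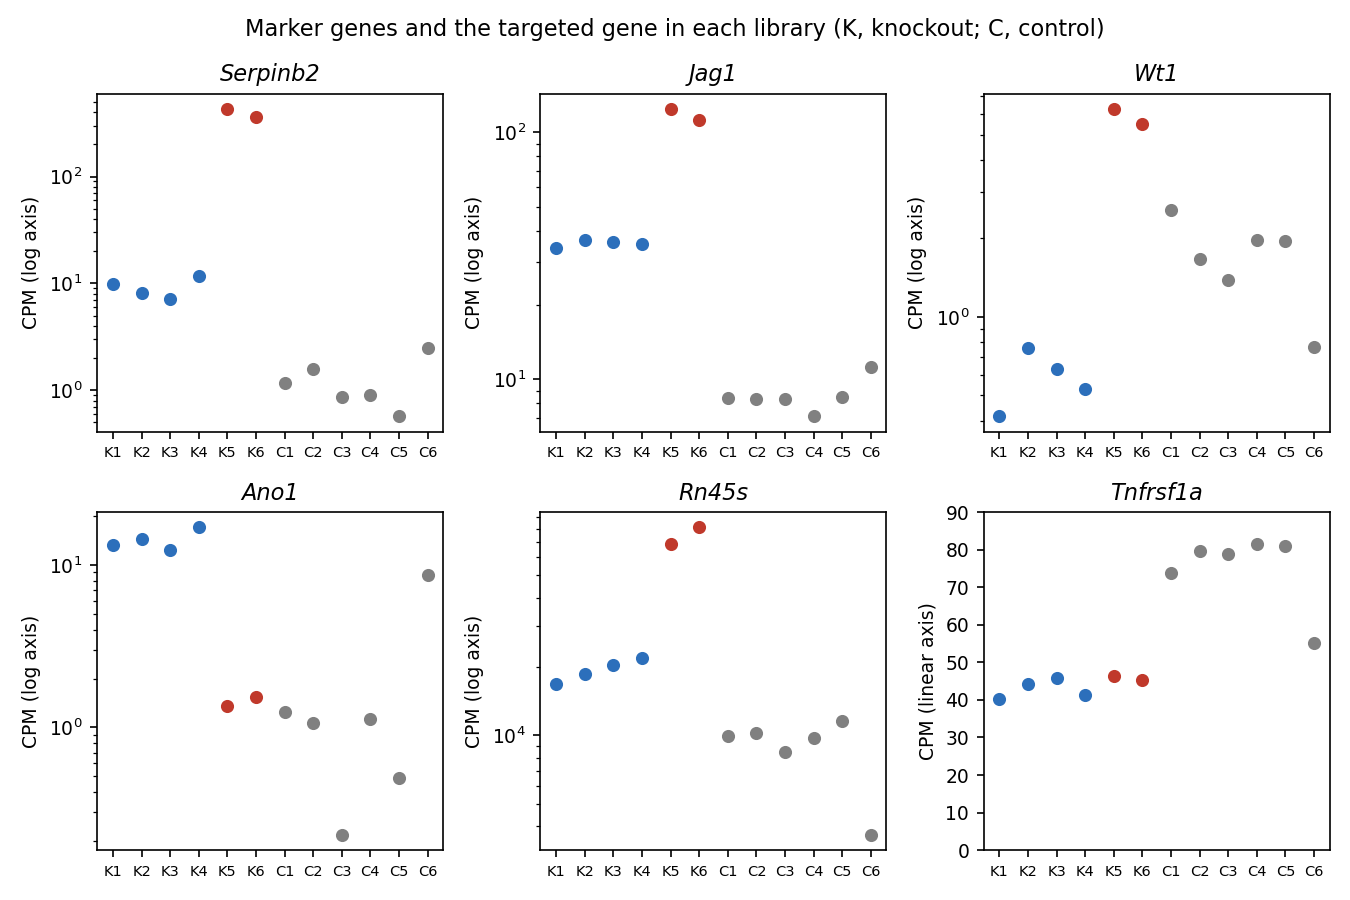
CPM of the 5 marker genes (log axes) and of Tnfrsf1a (linear axis from 0) in each library, with knockout 1 to 4 in blue, knockout 5 and 6 in red and control 1 to 6 in grey. Each point is 1 library, and the red points stand away from the blue ones for the 5 markers and beside them for Tnfrsf1a.

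Genes of cell division were higher in knockout 5 and 6. Of 51 measured genes of DNA replication and S phase (52 listed), 44 were higher and none was lower, with a median log2 difference of 1.53 against 0.02 over all genes and a background of 7.85% higher. The members include Exo1, an exonuclease of mismatch repair, at 3.53, 4.06, 3.30 and 3.69 CPM across knockout 1 to 4 and 22.3 and 21.5 CPM across knockout 5 and 6. Cdc6, which loads the replicative helicase at origins, was at 4.26, 5.97, 4.56 and 5.05 CPM against 25.7 and 28.5 CPM. In neither did the sets come near each other, with log2 differences of 2.53 and 2.42. Pcna, the sliding clamp of DNA polymerases, was at 60.1 to 70.4 CPM across knockout 1 to 4 and 187 and 178 CPM across knockout 5 and 6. The list median lay between -0.04 and 0.03 in each of knockout 1 to 4, at 1.57 and 1.51 in knockout 5 and 6, and between -0.14 and 0.09 in the controls, relative to the mean of knockout 1 to 4. In bulk RNA, a larger share of dividing cells and more such RNA per cell cannot be told apart.

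Mitotic genes differed in the same direction by smaller steps. Of 50 measured genes, 27 were higher and none lower, and the median was 1.05. Mybl2, a transcription factor of the late cell cycle, was at 9.03, 8.25, 8.80 and 8.63 CPM across knockout 1 to 4 and 50.9 and 55.6 CPM across knockout 5 and 6. Sgol1, which protects centromeric cohesion, had a log2 difference of 1.59, and Ndc80, a kinetochore subunit, of 1.41. Mki67, the common proliferation marker, was at 62.4, 63.8, 42.1 and 63.3 CPM against 130.2 and 140.4 CPM, with knockout 3 the lowest of its set. Cdca7, a cell division cycle associated gene outside the lists, was at 6.42 to 7.85 CPM against 41.6 and 42.9 CPM. Histone genes of S phase, whose messages mostly lack a poly(A) tail, were poorly captured: 7 of 40 passed the filter, 1 of them, Hist1h1e, higher at 3.24 and 2.89 CPM against 0.727 to 1.27 CPM. Without the filter their median changed from -0.37 to 1.17, so no direction is given for this list.

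Promoters of the replication genes are shown because E2F transcription factors, which drive S phase genes, bind short GC-rich sites near the start. The letters TTTGGCGC or TTTCCCGC, on either strand in the 250 bases before the start, occurred in 18.9% of 37 higher S phase genes, in 3.05% of 9052 genes in the comparison and in 1.51% of all 27025 genes with a promoter in the table, from RefSeq on GRCm38.p6. Each line gives 30 bases on either side, read along the gene, with the match in capitals on whichever strand it lies.
Cdc6, chr11:98907983-98908050, plus strand: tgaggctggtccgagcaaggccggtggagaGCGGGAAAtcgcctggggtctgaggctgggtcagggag
Mcm5, chr8:75109330-75109397, plus strand: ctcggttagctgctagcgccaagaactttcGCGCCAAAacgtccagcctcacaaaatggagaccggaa
E2f7, chr10:110745211-110745278, plus strand: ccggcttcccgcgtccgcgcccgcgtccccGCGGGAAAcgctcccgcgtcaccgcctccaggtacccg
The matches end 131 to 191 bases before the start. The letters CCAAT were in 68.2% and TTTGAA, the cell cycle homology region, in 40.9% of 22 higher mitotic genes, against 41.2% and 12.5% of the genes in the comparison. A match is a description of letters and shows no binding. The lists were drawn up by function and their uncalled members were not counted apart, so these shares describe the lists and not the libraries.

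Genes restraining the cycle did not share a direction. Of 26 p53 targets and CDK inhibitors, 3 were higher and 6 lower (median -0.24), against 7.85% higher and 11.0% lower over all genes. Cdkn2b and Cdkn2a, which encode the p15 and p16/p19 inhibitors, were lower: Cdkn2b was at 59.8, 59.8, 70.8 and 57.7 CPM across knockout 1 to 4 and 15.9 and 17.2 CPM across knockout 5 and 6. Cdkn2a was at 109, 117, 137 and 104 CPM against 34.1 and 39.6 CPM. The largest difference was in Fas, a death receptor, at 10.3 to 12.8 CPM against 2.82 and 2.17 CPM. Cdkn1a, encoding p21, was at 443 to 491 CPM against 436 and 424 CPM (log2 difference -0.12), below the 2-fold line. Among 30 apoptosis and survival genes, 3 were higher, with Tnfrsf21, a death receptor, at 2.15, and 3 lower, with Casp12 at -1.95. These counts are near the 7.85% higher and 11.0% lower over all genes and are no result about the list.

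Ribosome assembly genes were higher as well. Of 40 nucleolar genes, 28 were higher and none lower, with a median of 1.13. Nop56, a core protein of box C/D small nucleolar particles, was at 113, 112, 119 and 112 CPM across knockout 1 to 4 and 419 and 399 CPM across knockout 5 and 6. Rrp9 and Nhp2, which act in ribosomal RNA processing and modification, had log2 differences of 1.53 and 1.504. The 79 cytosolic ribosomal protein genes lay within a narrow band, with a median of 0.33, a highest value of 0.64 and none past 2-fold. Myc, a regulator of ribosome production, was at 58.0, 53.2, 58.0 and 54.8 CPM against 157 and 153 CPM. Snhg1, a host gene of small nucleolar RNAs, was at 16.2 to 19.1 CPM against 66.7 and 60.0 CPM.

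Immediate early genes were higher in part, and feedback regulators of growth factor signalling had no common direction. Immediate early genes are switched on within minutes of a stimulus, and many encode subunits of AP-1, a dimeric transcription factor of Fos and Jun proteins. Of 24 such genes, 12 were higher and none lower (median 0.93). Fosb was at 2.91, 2.41, 1.26 and 2.21 CPM across knockout 1 to 4 and 25.3 and 23.8 CPM across knockout 5 and 6. Egr2, a zinc finger factor, was at 14.1, 10.4, 12.4 and 14.3 CPM against 75.6 and 66.2 CPM, and Fosl1, the Fra-1 subunit of AP-1, at 45.2, 49.6, 45.2 and 45.1 CPM against 155 and 162 CPM. Relative to the mean of knockout 1 to 4, the list median in the 6 controls lay between -0.07 and 0.16 on the log2 scale. Errfi1, an inhibitor of the EGF receptor, was at 84.8, 86.9, 85.5 and 90.8 CPM against 502 and 448 CPM. Of 19 ERK feedback genes, 4 were higher and 2 lower (median 0.05), against 7.85% higher and 11.0% lower over all genes. The highest was Dusp5, a nuclear ERK phosphatase, at 18.7 to 24.8 CPM against 114 and 124 CPM. The lowest was Etv1, with a log2 difference of -1.29. Dusp9, another MAP kinase phosphatase but not in that list, had a log2 difference of 2.43. Errfi1 and Dusp9 were named for being among the 15 largest rises.

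Ligands of the EGF receptor were among the higher growth factors. Hbegf was at 45.0, 44.2, 46.2 and 45.7 CPM across knockout 1 to 4 and 247 and 235 CPM across knockout 5 and 6. Ereg was at 101, 106, 94.9 and 101 CPM against 257 and 212 CPM. Areg was at 1.25, 0.508, 0.785 and 0.421 CPM against 4.81 and 7.65 CPM, from 46 and 74 counts in the latter. All 3 encode EGF family ligands, and for each the 2 libraries lay above the other 4 and above the controls. Over all measured genes, 8319 (73.7%) did not overlap between the sets, so lack of overlap alone is no trait of these ligands. Of 37 growth factors and receptors in all, 8 were higher and 11 lower (median -0.17). Figf, which encodes the lymphatic growth factor VEGF-D, was at 82.4, 84.7, 88.3 and 84.0 CPM across knockout 1 to 4 and 3.76 and 4.24 CPM across knockout 5 and 6, and Pdgfd, a ligand of PDGF receptor beta, had a log2 difference of -2.66. Control 6, at 145 CPM of Figf, exceeded control 1 to 5 at 19.8 to 21.9 CPM.

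**Figure D3:**
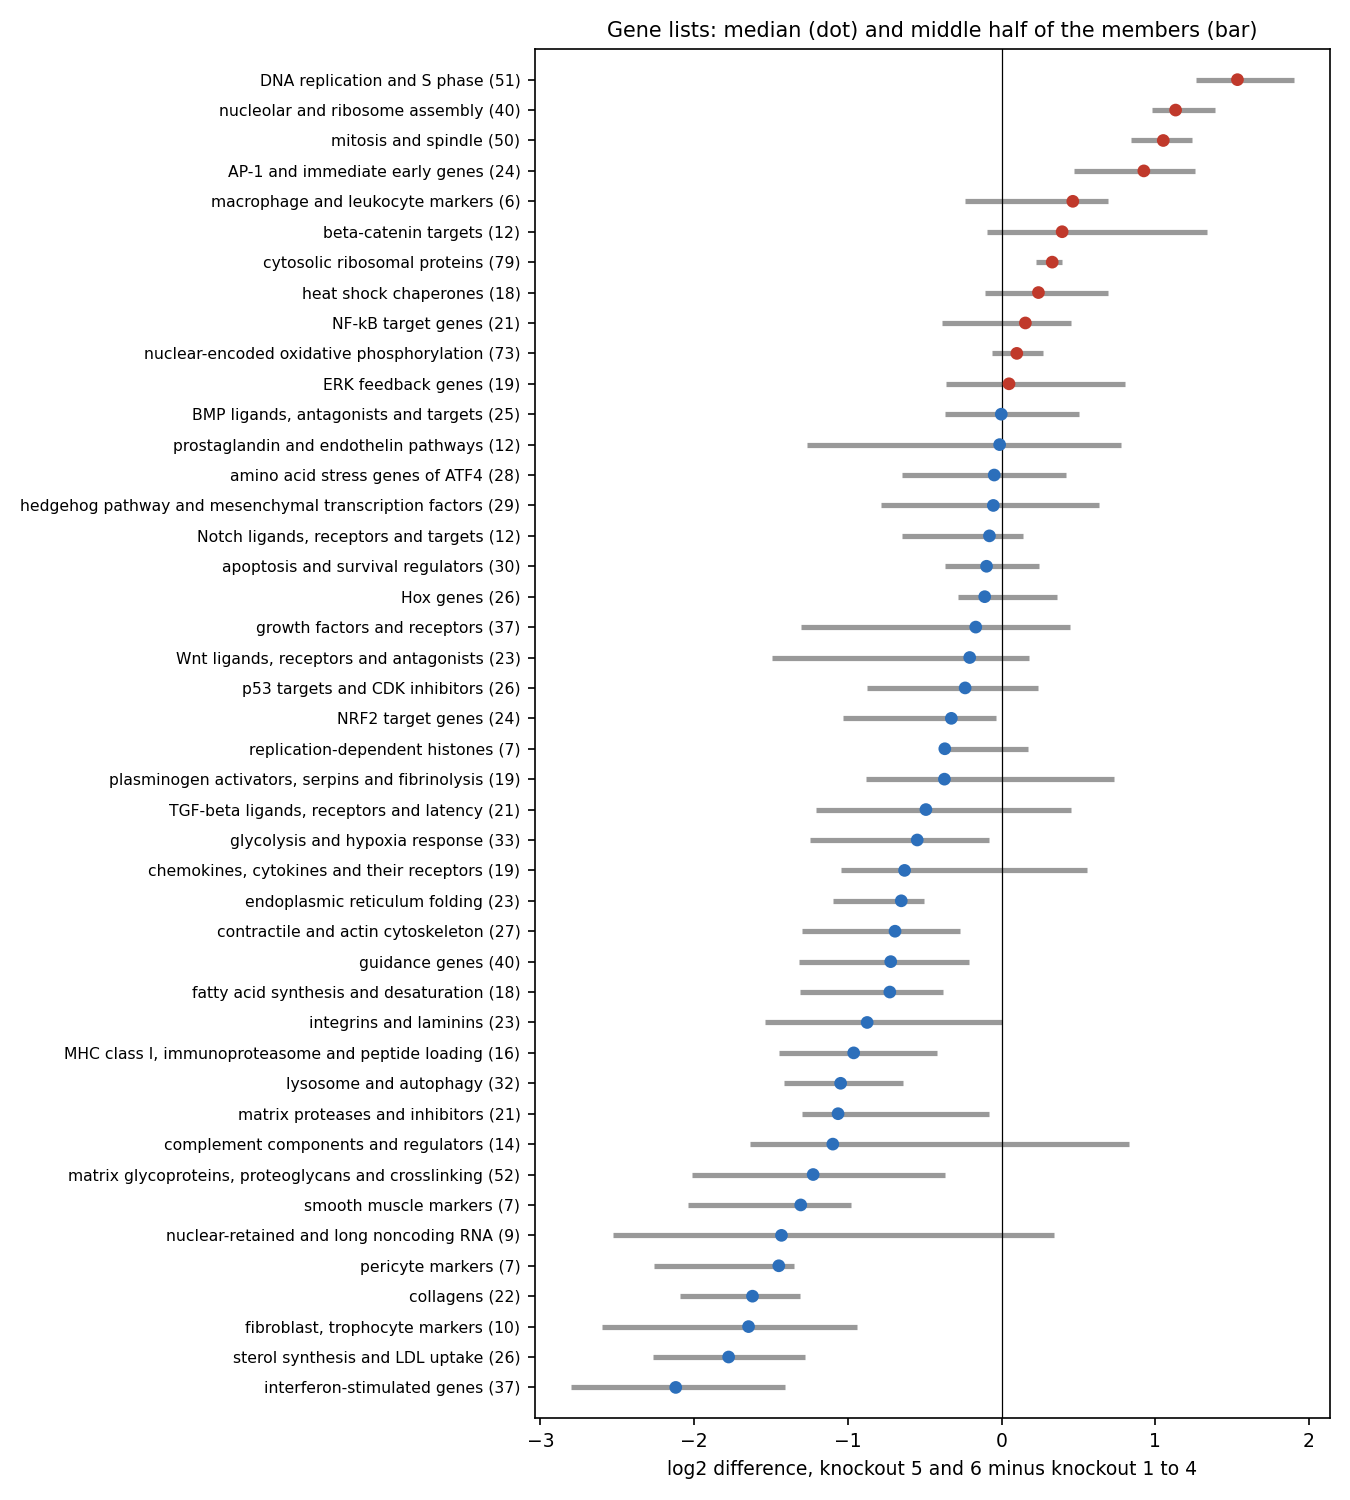
Median log2 difference, knockout 5 and 6 minus knockout 1 to 4 (x axis), of each gene list with at least 5 measured members, with the number measured in brackets. Dots are medians and bars run from the lower to the upper quartile of the members. DNA replication is at the upper end, at 1.53, and interferon-stimulated genes are at the lower end, at -2.12.

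Sterol synthesis was lower almost throughout its pathway. Cells make cholesterol through the mevalonate pathway and import it through the LDL receptor, and SREBP2 controls both under the sterol sensor that Insig1 helps to form. Of 26 measured genes, 23 were lower and none higher, against 11.0% lower over all genes, with a median of -1.78. Insig1 was at 155, 158, 156 and 165 CPM across knockout 1 to 4 and 19.8 and 22.6 CPM across knockout 5 and 6. Idi1, the isopentenyl diphosphate isomerase, was at 103, 94.7, 113 and 105 CPM against 19.3 and 17.1 CPM. Sqle, the squalene epoxidase, had a log2 difference of -1.93, and Tm7sf2, a sterol reductase, of -2.51. Srebf2 itself was at 185 to 198 CPM against 77.5 and 75.6 CPM. The list median of control 1 to 5 lay between the sets, at -0.88 to -0.78, while control 6 was at 0.13.

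Fatty acid genes were lower in part. Of 18 measured, 6 were lower and none higher (median -0.73). Scd2, a stearoyl-CoA desaturase, was at 1025, 1017, 981 and 1014 CPM across knockout 1 to 4 and 116 and 126 CPM across knockout 5 and 6. Lpin1, a phosphatidate phosphatase, had a log2 difference of -2.54, and Acss2, which makes acetyl-CoA from acetate, of -1.84. Plin4, a lipid droplet coat protein, was at 19.3 to 24.7 CPM against 1.05 and 0.620 CPM. The sterol element TCACNCCAC, on either strand, was found in 1 of 16 lower sterol genes (6.25%), that of Hmgcs1, and in 1.24% of the genes in the comparison. The letters CCAAT, bound by NF-Y, were in 93.8% of the 16 against 41.2%. As for the replication genes, these shares describe the list. The Hmgcs1 window is shown as the sterol gene that holds the element, with the match in capitals.
Hmgcs1, chr13:119690184-119690252, plus strand: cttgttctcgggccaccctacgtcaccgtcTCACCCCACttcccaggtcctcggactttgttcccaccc

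Matrix genes were lower as a broad class. Of 22 measured collagen genes, 18 were lower and 1 was higher (median -1.62). Col1a1, the main chain of fibrillar type I collagen, was at 11019, 11184, 10393 and 11295 CPM across knockout 1 to 4 and 2008 and 2099 CPM across knockout 5 and 6. Col11a1, a minor fibrillar chain, had a log2 difference of -2.56, and Col6a1, of the beaded filaments, of -2.21. Col4a1, of basement membranes, was at 4331, 4362, 3697 and 4418 CPM against 1742 and 1786 CPM, with knockout 3 below the rest of its set. Control 1 to 5 held 1734 to 1868 CPM of Col4a1, a range that includes knockout 5 and 6, and control 6 held 4579 CPM. The collagen list median was 0.40 in control 6 and -0.43 to -0.30 in control 1 to 5. By this median, though not for Col4a1, all controls lay above knockout 5 and 6, at -1.69 and -1.61.

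Of 52 matrix glycoproteins, proteoglycans and crosslinking enzymes, 31 were lower and 2 higher (median -1.23). Efemp1, which encodes fibulin-3, was at 194, 188, 199.7 and 196 CPM across knockout 1 to 4 and 9.93 and 7.54 CPM across knockout 5 and 6. Prelp, a leucine-rich proteoglycan, was at 35.0 to 39.3 CPM against 2.20 and 3.41 CPM, and Fbln5, the elastic fibre protein fibulin-5, at 657 to 672 CPM against 111 and 94.8 CPM. Fn1, fibronectin, was at 14905, 15122, 9794 and 15139 CPM against 3094 and 3129 CPM, again with knockout 3 lowest of the 4. Thbs1, thrombospondin 1 and among the most abundant transcripts, was at 23687, 24059.9, 20314 and 23927 CPM against 11153 and 10544 CPM. Control 1 to 5 held 2836 to 2982 CPM of Thbs1, below knockout 5 and 6, and control 6 held 30391 CPM. For Fn1 all controls, at 9503 to 22995 CPM, were above knockout 5 and 6. Itgbl1, a secreted protein with integrin beta EGF-like repeats, had the most negative log2 difference of the genes named here. It was at 36.2, 39.7, 33.8 and 40.2 CPM across knockout 1 to 4 and 0.418 and 0.103 CPM across knockout 5 and 6. The latter are 4 and 1 counts, so its size depends on the prior count.

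Hyaluronan genes went in opposite directions. Has2, the main hyaluronan synthase of mesenchymal cells, was at 43.9, 44.2, 42.3 and 51.4 CPM across knockout 1 to 4, 291 and 263 CPM across knockout 5 and 6 and 10.9 to 36.7 CPM in the controls. Cemip, needed for hyaluronan breakdown by fibroblasts, was at 369.5, 370.5, 303 and 383 CPM against 16.2 and 15.6 CPM. Control 1 to 5 held 4.84 to 7.49 CPM of Cemip and control 6 241 CPM. For both genes the 2 libraries were far from the 4, by 2.60 and -4.47 on the log2 scale.

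Proteases and their inhibitors were mixed. Of 21 matrix proteases and inhibitors, 11 were lower and 4 higher (median -1.06). The aggrecanase Adamts5 was at 214, 213, 197 and 220.0 CPM across knockout 1 to 4 and 15.2 and 16.9 CPM across knockout 5 and 6. Adamts1 had a log2 difference of -2.74, and Adam33, a membrane metalloprotease, was at 21.7 to 24.4 CPM against 0.523 and 0.723 CPM. Mmp13, an interstitial collagenase, was higher, at 1.35, 0.888, 1.41 and 1.68 CPM against 14.7 and 13.4 CPM. Timp1, an inhibitor of such enzymes, was at 378, 360.5, 470.2 and 374 CPM against 993 and 905 CPM, with knockout 3 highest of the 4. In the plasmin system, 5 of 19 genes were higher and 4 lower, against 7.85% and 11.0% over all genes. Serpinb2, picked as a set marker, is among the higher ones. Plaur, the urokinase receptor, was at 75.04 to 91.1 CPM against 225 and 254 CPM. Plat, tissue plasminogen activator, was lower, at 52.9 to 59.7 CPM against 10.5 and 10.0 CPM.

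Integrins and contractile genes were lower in part. Of 23 integrin and laminin chains, 9 were lower and 1 higher. Itga8, which pairs with integrin beta 1 to bind nephronectin, was at 34.9, 29.95, 29.7 and 33.7 CPM across knockout 1 to 4 and 1.36 and 2.17 CPM across knockout 5 and 6. The collagen-binding chains Itga11 and Itga1 had log2 differences of -2.58 and -2.09. Of 27 contractile and actin cytoskeleton genes, 10 were lower and 1 higher (median -0.69). Relative to the mean of knockout 1 to 4, this list median was -1.69 to -1.54 in control 1 to 5 and -0.55 in control 6. Knockout 5 and 6, at -0.69 and -0.70, lay within the range of the controls, and knockout 1 to 4 lay above it. Myh11, smooth muscle myosin heavy chain, was at 273, 279, 199 and 284 CPM against 18.0 and 19.7 CPM, with knockout 3 lowest of the 4. Acta2, smooth muscle actin and the usual myofibroblast marker, was at 5924, 5928, 6600.4 and 5908 CPM against 2869 and 2784 CPM, and it was abundant in all 6 libraries. The controls held 1467 to 3288 CPM of Acta2, a range that includes knockout 5 and 6. Tagln, the actin-binding protein transgelin, had a log2 difference of -0.35, and Vim, the mesenchymal filament protein vimentin, of 0.07, both within 2-fold.

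Markers of other mesenchymal types moved with these groups. For smooth muscle, 5 of 7 measured markers were lower, and the 9 listed markers summed to 8191 to 8956 CPM across knockout 1 to 4, 3635 to 3716 CPM across knockout 5 and 6 and 1949 to 4433 CPM in the controls. For pericytes 6 of 7 were lower, and the sums were 814 to 923 CPM, 339 to 357 CPM and 622 to 933 CPM. Acta2, the usual myofibroblast marker, made most of the smooth muscle sum, with the values given above. Pdgfrb, given below, made a large part of the pericyte sum. Among the other members Cnn1, a smooth muscle calponin, was at 565 to 643 CPM against 166 and 170.0 CPM, and Kcnj8, a potassium channel of pericytes, at 8.20 to 10.7 CPM against 0.627 and 1.34 CPM. Of the 10 measured markers of trophocytes, the CD81+ fibroblasts that secrete R-spondin and Gremlin, 7 were lower, with Ly6a (Sca-1) at 158, 159, 193 and 165 CPM against 9.10 and 9.51 CPM. Of 4 measured telocyte markers 1 was lower, and the 11 listed summed to 782.5 to 828.8 CPM against 930 to 1014 CPM. The PDGF receptors differed, Pdgfra at 102 to 124 CPM against 85.6 and 86.6 CPM and Pdgfrb at 423 to 488 CPM against 169 and 173 CPM. The part of cell mixture in the matrix and contractile differences was not tested.

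Markers of cells outside the mesenchyme were low. Epcam and Cdh1, which define epithelium, were each at 0 counts in 5 of 6 knockout libraries and 1 count in the sixth, and 3 of the 14 listed epithelial markers were at 0 in all 6. The epithelial markers summed to 17.7 to 22.9 CPM across knockout 1 to 4 and 12.4 to 13.0 CPM across knockout 5 and 6, of which Krt19 made 10.8 to 16.7 CPM and 5.44 and 6.10 CPM. Endothelial markers summed to 8.48 to 13.3 CPM against 11.3 to 11.5 CPM, and macrophage and leukocyte markers to 59.7 to 69.9 CPM against 60.4 to 70.7 CPM. The last of these overlapped between the sets. Of the 6 measured macrophage and leukocyte markers 1 was lower and none higher, with a median log2 difference of 0.46. The lower one, Cd53, a leukocyte tetraspanin, was at 18.1 to 22.5 CPM against 7.21 and 6.61 CPM. Mesothelial markers, Wt1 among them, summed to 15.3 to 20.7 CPM against 18.8 to 19.9 CPM, so their sum did not separate the sets although Wt1 did. Both measured markers of interstitial cells of Cajal, Ano1 and Etv1, were lower, and the 6 listed summed to 19.6 to 23.7 CPM against 3.97 to 5.06 CPM. Ano1 was picked as a set marker, and at 12.4 to 17.1 CPM across knockout 1 to 4 it makes most of the sum there. Of 4 measured adipocyte markers, Cebpa was higher and Plin4 lower. Neither of the 2 measured glial and neuronal markers passed 2-fold.

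Interferon-stimulated genes had the lowest median of the lists with at least 5 measured members. These genes answer interferons through STAT and IRF factors, and cultured fibroblasts hold a basal level of them. Of 37 measured genes (45 listed), 32 were lower and none higher, with a median of -2.12. Ifit3, a partner of the viral RNA sensor Ifit1, was at 80.4, 84.3, 88.4 and 81.5 CPM across knockout 1 to 4, 3.03 and 5.48 CPM across knockout 5 and 6 and 120.4 to 291 CPM in the controls. Iigp1, an immunity-related GTPase, was at 9.45, 9.39, 9.43 and 11.1 CPM against 0.209 and 0.517 CPM. Oas2, an oligoadenylate synthetase, was at 3.81 to 4.98 CPM across knockout 1 to 4 and at 0 and 1 counts in knockout 5 and 6. Iigp1 and Oas2 passed the filter through knockout 1 to 4, where they were high. The controls, with list medians of 0.53 to 0.93, were above both knockout sets, and knockout 5 and 6 were at -1.94 and -2.13.

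The interferon response element was searched as GAAANNGAA on either strand, a motif added after the data had been seen. It was found in 54.2% of 24 lower interferon-stimulated genes and in 7.28% of the 9052 genes in the comparison. List members that were not called were not counted apart, so this share describes the list and not the libraries. The windows of 3 of them are printed with the match in capitals, which lies on the opposite strand in all 3.
Ifit3, chr19:34583344-34583412, plus strand: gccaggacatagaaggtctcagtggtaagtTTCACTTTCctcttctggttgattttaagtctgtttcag
Ifit1, chr19:34640750-34640818, plus strand: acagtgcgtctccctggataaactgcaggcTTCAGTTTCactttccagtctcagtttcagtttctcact
Gbp3, chr3:142559970-142560038, plus strand: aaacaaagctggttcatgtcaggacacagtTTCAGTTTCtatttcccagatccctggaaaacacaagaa

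Antigen presentation was lower to a smaller extent. Of 16 MHC class I, immunoproteasome and peptide loading genes, 8 were lower and none higher (median -0.96). Tapbp, which links class I chains to the peptide transporter, was at 111, 109, 123 and 118 CPM across knockout 1 to 4 and 29.3 and 25.7 CPM across knockout 5 and 6. H2-T23, a nonclassical class I chain, had a log2 difference of -1.73. H2-T22 was at 33.0 to 41.6 CPM against 14.4 and 3.82 CPM, and since near-identical class I genes share reads these values are uncertain. Calr, the chaperone that folds class I among other proteins, was at 1799.7 to 1941 CPM against 603 and 640.5 CPM.

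Genes downstream of NF-kB, the pathway of the deleted receptor, had no common direction. Of 21 measured, 2 were higher and 2 lower (median 0.15), near the shares over all genes. Tnfaip3, the NF-kB inhibitor A20, was at 5.397, 8.00, 4.71 and 6.32 CPM across knockout 1 to 4 and 26.3 and 26.9 CPM across knockout 5 and 6. Il6 was at 1.25, 1.27, 1.73 and 1.16 CPM against 5.33 and 3.93 CPM, a low level in all 6. Vcam1, an adhesion molecule for leukocytes, was lower, at 422, 429, 435 and 418 CPM against 67.7 and 66.0 CPM. Icam1 was at 4.36, 6.22, 4.87 and 6.32 CPM against 1.99 and 4.03 CPM, and Tnf had at most 2 counts in any knockout library. Of 19 chemokines, cytokines and receptors, 2 were higher, with the IL-6 family cytokine Lif at 1.82, and 5 lower, with the monocyte attractant Ccl7 at -1.47. Over all genes 7.85% were higher and 11.0% lower.

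Of 14 complement genes, 8 were lower and 3 higher. C1ra, a protease of the first component, was at 40.4, 38.7, 44.8 and 44.7 CPM across knockout 1 to 4 and 5.85 and 5.99 CPM across knockout 5 and 6, and Cd55, which dissolves complement convertases, had a log2 difference of -2.81. Clu, clusterin, a secreted chaperone that also blocks terminal complement, was higher at 1.97, 0.762, 0.314 and 1.47 CPM against 20.3 and 20.8 CPM. Ptgs2, the inducible prostaglandin synthase, was at 1230.0 to 1401 CPM against 2598 and 2310.3 CPM (log2 difference 0.88), short of 2-fold. Of the 12 prostaglandin and endothelin genes 5 were lower, with the thromboxane receptor gene Tbxa2r at -2.27 and the endothelin-converting enzyme Ece1 at -1.35, and 1, endothelin 1 (Edn1), was higher at 1.49.

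**Figure D4:**
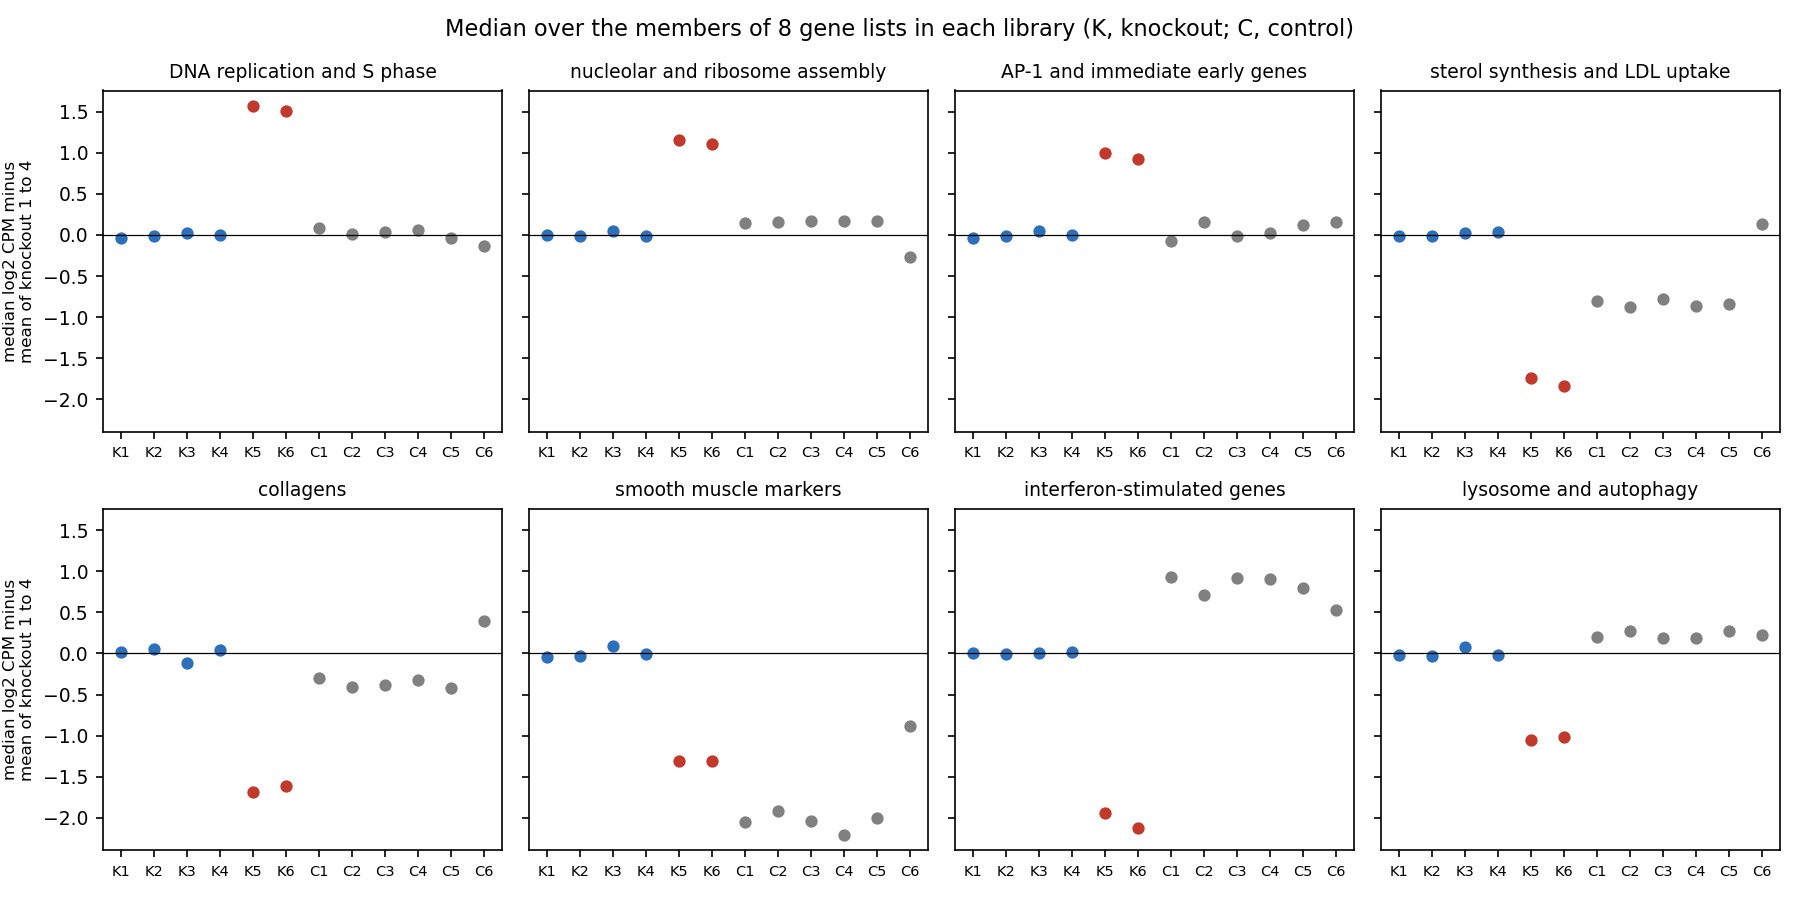
Median log2 CPM of 8 gene lists in each library, relative to the mean of knockout 1 to 4 (y axis), with knockout 1 to 4 in blue, knockout 5 and 6 in red and control 1 to 6 in grey. Each point is 1 library; the red points leave the blue ones in all 8 lists, and control 6 lies nearer to knockout 1 to 4 than control 1 to 5 do for sterol synthesis and smooth muscle markers.

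Among signals to the epithelial stem cell niche, the R-spondin genes Rspo2 and Rspo3 were lower. Wnt ligands and R-spondins sustain crypt stem cells, and BMPs act against them. Of 23 measured Wnt pathway genes, 8 were lower and 1 higher (median -0.21). Rspo2, an R-spondin, was at 10.1, 11.8, 11.8 and 11.9 CPM across knockout 1 to 4 and 0.523 and 0.103 CPM across knockout 5 and 6, the latter from 5 and 1 counts. Rspo3, the main R-spondin of colonic stroma, was at 11.3, 10.8, 10.4 and 10.2 CPM against 2.30 and 0.827 CPM, and both sets lay below the controls, at 35.5 to 42.9 CPM. Wnt11, a ligand of the non-canonical branch, was the higher gene, at 0.208, 0.508, 0.628 and 0.421 CPM against 6.06 and 4.75 CPM. These are 2, 4, 4 and 4 counts against 58 and 46. It passed the filter through knockout 5 and 6, where it was high. Wnt5a was at 73.2 to 84.6 CPM against 93.7 and 87.4 CPM. The Wnt antagonists Frzb and Sfrp1 were lower, with Frzb at 23.4 to 27.7 CPM against 7.21 and 7.13 CPM and Sfrp1 at 42.9 to 49.7 CPM against 15.3 and 12.7 CPM. Of 12 beta-catenin targets 4 were higher and none lower, among them the transcription factors Lef1, at 1.26 to 1.78 CPM against 6.38 and 6.82 CPM, and Tcf7, at 0.381 to 1.73 CPM against 4.50 and 4.44 CPM. Lef1 and Tcf7 also passed the filter through knockout 5 and 6, and Rspo2 and Rspo3 through knockout 1 to 4.

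Of 25 genes of the BMP pathway, 3 were higher and 4 lower, near the 7.85% and 11.0% over all genes, so the members below are given as values. The BMP antagonist Nog was at 2.18, 2.03, 1.41 and 1.37 CPM across knockout 1 to 4 and 6.48 and 8.47 CPM across knockout 5 and 6, and the antagonist Chrd went the other way, at 9.24, 7.49, 8.64 and 9.69 CPM against 2.20 and 2.48 CPM. Fstl1, a follistatin-like secreted protein, had a log2 difference of -1.76. Of 21 TGF-beta genes, 6 were lower and 2 higher, against 11.0% and 7.85% over all genes. Tgfb2, a ligand, was at 35.5 to 40.5 CPM against 12.5 and 12.2 CPM, and the co-receptor Tgfbr3 at 89.1 to 108 CPM against 29.9 and 27.0 CPM. Skil, a repressor of SMAD signalling, was higher at 78.9 to 85.9 CPM against 242 and 219 CPM. Besides Jag1, the Notch list of 12 held 2 lower genes, against 11.0% over all genes. These were the receptor Notch3 at -2.41 and the non-canonical ligand Dlk1 at -1.41.

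Hox genes and mesenchymal transcription factors had medians near 0, with single members past 2-fold. Of 26 measured Hox genes, which record position along the body axis, 4 were higher and none lower, with a median of -0.11. Hoxc11 was at 1.73 to 2.39 CPM against 6.59 and 7.03 CPM and Hoxc10 at 4.98 to 8.12 CPM against 13.0 and 14.9 CPM, a log2 difference of 1.10 that was 0.98 without knockout 1. The share of higher Hox genes has to be read against 7.85% over all genes and the low levels of the family. Of 29 hedgehog and mesenchymal transcription factor genes, 3 were higher, with the gut forkhead factor Foxf2 at 1.62 and the T-box factor Tbx2 at 1.56, and 5 lower, with the hedgehog co-receptor Gas1 at -1.86, against 7.85% higher and 11.0% lower over all genes. Among 40 guidance genes 16 were lower and 4 higher. The receptor tyrosine kinase Epha1 was at 24.6 to 29.2 CPM against 2.82 and 1.86 CPM, the secreted semaphorin Sema3b had a log2 difference of -2.64, and Plxna4, a semaphorin receptor, of -2.61.

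Organelle and stress programs were unequal. Of 32 lysosome and autophagy genes, 19 were lower and none higher (median -1.05). Grn, the lysosomal protein progranulin, was at 427, 428, 483 and 441 CPM across knockout 1 to 4 and 118 and 121 CPM across knockout 5 and 6. Gaa, acid alpha-glucosidase, had a log2 difference of -1.76, and the membrane protein Lamp2 of -1.54. Of 23 genes of endoplasmic reticulum folding, 7 were lower and none higher, among them Pdia4, a disulphide isomerase, at -1.27 and Sel1l, of protein degradation, at -1.40. Controls held 713 to 3467 CPM of Pdia4, above 478 to 494 CPM across knockout 1 to 4 and 203 and 200.4 CPM across knockout 5 and 6. Of 28 ATF4 target genes, 5 were lower and none higher, against 11.0% lower over all genes. Their median was -0.05, or 0.022 with library totals alone, so no direction is given for this list. Chac1, a glutathione-degrading enzyme, was at -1.62. NRF2 targets were lower in 6 of 24, against the same 11.0%. Among them were the epoxide hydrolase Ephx1 and the extracellular superoxide dismutase Sod3, both at -2.62. None of 18 heat shock chaperones passed 2-fold.

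In energy metabolism, 10 of 33 glycolysis and hypoxia genes were lower and 1 higher (median -0.55). Bnip3, a mitophagy receptor induced by low oxygen, was at 90.9, 90.6, 112 and 91.1 CPM across knockout 1 to 4 and 23.5 and 22.4 CPM across knockout 5 and 6. Eno2, an enolase, had a log2 difference of -2.18, and Adm, the vasodilator peptide adrenomedullin, of -1.97. Nuclear-encoded oxidative phosphorylation genes hardly differed, with 1 of 73, Ndufv3 at -1.01, past 2-fold and a median of 0.10. Ndufv3 was at -0.94 with library totals alone and at -0.92 without knockout 3 or without knockout 5, so it was not past 2-fold there.

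Long noncoding RNA included some of the largest differences among abundant transcripts. Meg3, a maternally expressed noncoding RNA, was at 865, 870.3, 871 and 873 CPM across knockout 1 to 4 and 77.6 and 76.7 CPM across knockout 5 and 6. Its neighbours in the same imprinted domain were lower too, Rian at 635 to 656 CPM against 139 and 129.9 CPM and Mirg at 13.5 to 20.1 CPM against 2.61 and 2.58 CPM. Dlk1, the paternally expressed coding gene of that domain, was at 129 to 146 CPM against 49.3 and 52.9 CPM. Neat1, the scaffold of nuclear paraspeckles, was at 599.9, 578, 553 and 595 CPM against 59.1 and 61.3 CPM. Of 9 measured noncoding RNAs 5 were lower and 1 higher.

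Other genes with the largest positive differences by the naming rule included Vgf, a neurosecretory peptide precursor, at 1.76, 2.16, 1.41 and 2.21 CPM across knockout 1 to 4 and 29.8 and 25.3 CPM across knockout 5 and 6. S1pr1, a sphingosine 1-phosphate receptor, was at 3.58 to 5.84 CPM against 31.5 and 25.9 CPM, and the transcription factor Cebpa at 2.39 to 3.81 CPM against 17.8 and 16.5 CPM. Fam84b and Fam110c had log2 differences of 3.10 and 2.85. The largest negative differences included Slc5a7, the high-affinity choline transporter, at 181, 182, 156 and 183 CPM against 11.4 and 10.5 CPM, and Aoc3, a vascular amine oxidase, at 55.9, 55.5, 48.1 and 55.6 CPM against 2.51 and 1.55 CPM. Mrgprf, an orphan receptor, and Igsf10, of the immunoglobulin superfamily, had log2 differences of -4.71 and -4.52.

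Where the called genes lay beside the controls depended on control 6. Of the 886 higher genes, 488 had knockout 1 to 4 within the range of control 1 to 6 and knockout 5 and 6 above it, 221 had both sets above, and 116 had knockout 1 to 4 below and knockout 5 and 6 above. Against the range of control 1 to 5, these counts were 208, 252 and 367. Of the 1239 lower genes, 506 had knockout 1 to 4 within the range of control 1 to 6 and knockout 5 and 6 below it, 411 had both sets below, 152 had knockout 1 to 4 above and knockout 5 and 6 below, and 115 had knockout 1 to 4 above and knockout 5 and 6 within. Against the range of control 1 to 5, these counts were 129, 429, 512 and 68. Of the 9157 genes not called, against control 1 to 6, 18.7% had both sets above and 17.3% both below. A further 15.9% had knockout 1 to 4 within and knockout 5 and 6 above, and 12.2% within and below. The rule itself favours such positions for called genes, so the counts are a description. Control 6, taken alone, was at least 2-fold above the mean of control 1 to 5 in 359 of the lower genes (29.0%) and 38 of the higher genes (4.29%), against 6.76% of all genes in the comparison. That count was added after the data had been seen. By chromosome, with 11252 genes matched by symbol to RefSeq, the median difference ran from -0.16 on X to 0.13 on 15 over the 20 chromosomes with at least 20 genes, so no chromosome median came near 2-fold.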

How the data were processed

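RNA was sequenced from 12 samples of primary mouse colonic myofibroblasts, after oligo-dT selection and dUTP strand-specific library preparation, per the labels' protocols. The authors deposited 1 table of expected counts, estimated reads per gene that need not be whole, for 24411 symbols. The submitters' processing notes name Bowtie2 2.1.0, RSEM 1.2.15 and a human build, while the rows are mouse symbols, so the build is uncertain. The annotation release was not given in the sources used here, nor was the strand setting. Genes with near-identical copies and overlapping or antisense genes are therefore uncertain.

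Values were rounded to whole numbers (2.67% to 3.48% per library had decimals) and scaled to CPM with TMM effective library sizes over the 12 libraries (edgeR 4.0.16, R 4.3.3). Log2 CPM used a prior count of 2, which understates differences of low genes. Differences are between set means of log2 CPM. No test was run between the sets, because they were defined from the same values. The calling rule was checked on simulated counts with known folds and library sets fixed beforehand. Choosing the sets from the profiles was not simulated, so the check does not cover that step.

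The library sets, markers and 53 gene lists (12 of them for cell types or sex) were chosen with earlier results of these data known. Genes were named by a rule: Tnfrsf1a, the 5 markers, the 15 largest rises and falls at 10 CPM or more, and up to 3 called members of each list. It gave 136 genes, of which the text uses those that carry a result. Lars2, Ddx3y, Xist, Epcam, Cdh1, Thbs1, Timp1, Cdkn1a, Mki67, Pcna, Sqle, Srebf2, Acta2, Tagln, Pdgfra, Pdgfrb, Vim, Fn1, Col4a1, Ptgs2, Icam1, Ereg, Wnt5a, Sfrp1, Hbegf, Rian, Snhg1 and Tnf were named after their values were seen. A few genes are not reported here. Promoter sequences are from RefSeq, GRCm38.p6. Alternatives were other scalings, prior counts, filters, fold limits and each knockout library left out.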

Additional observations from a re-analysis of the deposited data

Results flagged for a closer look

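A library is listed here where its gap to the nearest other library of its group was large against the whole range of the group, by Dixon's 95% limits, which chance passes in about 1 of 20 groups. Of 32 such cases among 344 groups checked, knockout 3 within knockout 1 to 4 gave most. Knockout 3 was low for Aoc3 (48.1 CPM, the others 55.5 to 55.9), Slc5a7 (156 CPM, the others 181 to 183), Myh11 (199 CPM, the others 273 to 284), Prelp (35.0 CPM, the others 39.0 to 39.3), Sel1l (258 CPM, the others 308 to 315), Tgfbr3 (89.1 CPM, the others 105 to 108), Ddx3y (95.04 CPM, the others 105 to 107), Thbs1 (20314 CPM, the others 23687 to 24059.9), Mki67 (42.1 CPM, the others 62.4 to 63.8), Pdgfrb (423 CPM, the others 478 to 488), Fn1 (9794 CPM, the others 14905 to 15139) and Col4a1 (3697 CPM, the others 4331 to 4418). It was high for Cdkn2b (70.8 CPM, the others 57.7 to 59.8), Bnip3 (112 CPM, the others 90.6 to 91.1), Nop56 (119 CPM, the others 112 to 113), Calr (1941 CPM, the others 1799.7 to 1808), Ccl7 (28.9 CPM, the others 20.0 to 21.3), Timp1 (470.2 CPM, the others 360.5 to 378), Acta2 (6600.4 CPM, the others 5908 to 5928), Tagln (3804 CPM, the others 3149 to 3162) and Vim (4015 CPM, the others 3587 to 3620.3). These values go with the difference of knockout 3 by transcript length given above, and the part of length in them was not tested.

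Other libraries of knockout 1 to 4 stood apart singly. Knockout 2 was high for Eno2 (31.5 CPM, the others 27.0 to 27.5) and Fosl1 (49.6 CPM, the others 45.1 to 45.2). Knockout 4 was high for Iigp1 (11.1 CPM, the others 9.39 to 9.45), and knockout 1 was low for Rspo2 (10.1 CPM, the others 11.8 to 11.9). Single libraries held the few counts of Xist (0.314 CPM in knockout 3, the other 5 knockout libraries at 0), Epcam (0.103 CPM in knockout 6) and Cdh1 (0.105 CPM in knockout 5). Control groups were checked for totals, Tnfrsf1a and the 5 markers alone. Control 6 was low for Tnfrsf1a (55.0 CPM, the others 73.8 to 81.6) and high for Jag1 (11.2 CPM, the others 7.09 to 8.49) and Ano1 (8.67 CPM, the others 0.218 to 1.25). No difference between groups was tested, and no data outside the table were used.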

How the results depend on the processing

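The counts of called genes stayed within 1.5 times of 886 higher and 1239 lower under each scaling, prior count, filter and left-out library. Scalings gave 817 to 1045 higher and 1085 to 1307 lower, and leaving out 1 knockout library gave 878 to 934 and 1222 to 1278. The fold limit decides their size, with 2179 higher and 2331 lower at 1.5-fold and 78 and 262 at 4-fold. Of 28 list medians of at least 0.5 in size, 25 kept their sign under all 14 settings, and the exceptions were the mesothelial, epithelial and endothelial markers with no filter. No named gene past 2-fold changed sign. Of those named here, Ndufv3, Hoxc10 and Hoxa4 dropped under 2-fold in at least 1 setting. Medians that moved by more than the spread between library pairs are given in brackets for each setting, and the cause was not tested. With library totals alone, these were mitosis and spindle (1.12), p53 targets and CDK inhibitors (-0.17), fatty acid synthesis and desaturation (-0.66), glycolysis and hypoxia response (-0.48), nucleolar and ribosome assembly (1.202), endoplasmic reticulum folding (-0.58), heat shock chaperones (0.31), AP-1 and immediate early genes (1.00), ERK feedback genes (0.12), matrix glycoproteins, proteoglycans and crosslinking (-1.16), plasminogen activators, serpins and fibrinolysis (-0.30), integrins and laminins (-0.80), apoptosis and survival regulators (-0.028), lysosome and autophagy (-0.98) and smooth muscle markers (-1.24), and with the opposite sign amino acid stress genes of ATF4 (0.022) and prostaglandin and endothelin pathways (0.057). With TMM and Rn45s left out of the totals, these were p53 targets and CDK inhibitors (-0.27), fatty acid synthesis and desaturation (-0.76), nucleolar and ribosome assembly (1.09), amino acid stress genes of ATF4 (-0.085), heat shock chaperones (0.20) and pericyte markers (-1.81). With no filter beyond a count, these were nuclear-retained and long noncoding RNA (-1.21), NRF2 target genes (-0.48), matrix glycoproteins, proteoglycans and crosslinking (-1.13), plasminogen activators, serpins and fibrinolysis (-0.25), integrins and laminins (-0.80), interferon-stimulated genes (-1.94), MHC class I, immunoproteasome and peptide loading (-0.66), NF-kB target genes (0.32), chemokines, cytokines and their receptors (-0.35), guidance genes (-0.56), prostaglandin and endothelin pathways (-0.32), smooth muscle markers (-1.14) and interstitial cell of Cajal markers (-1.12), and with the opposite sign replication-dependent histones (1.17), Hox genes (0.024), fibroblast, telocyte markers (0.052), mesothelial markers (-0.044), epithelial markers (0.33), endothelial markers (-0.20) and glia and neuron markers (-0.85). With a filter of 10 CPM, these were p53 targets and CDK inhibitors (-0.14), sterol synthesis and LDL uptake (-1.93), fatty acid synthesis and desaturation (-0.65), nucleolar and ribosome assembly (1.16), RNA species outside messenger RNA selection (1.96), NRF2 target genes (-0.17), AP-1 and immediate early genes (1.03), plasminogen activators, serpins and fibrinolysis (-0.25), integrins and laminins (-0.98), interferon-stimulated genes (-1.73), MHC class I, immunoproteasome and peptide loading (-1.24), NF-kB target genes (0.27), complement components and regulators (-1.65), growth factors and receptors (-0.30), apoptosis and survival regulators (-0.021), fibroblast, trophocyte markers (-1.51) and smooth muscle markers (-1.21), and with the opposite sign macrophage and leukocyte markers (-0.61) and adipocyte markers (0.57). With 1 knockout library left out, the ranges were mitosis and spindle (0.97 to 1.10), nucleolar and ribosome assembly (1.10 to 1.18), amino acid stress genes of ATF4 (-0.11 to -0.03), NRF2 target genes (-0.46 to -0.33), AP-1 and immediate early genes (0.88 to 0.99), interferon-stimulated genes (-2.13 to -1.94), NF-kB target genes (0.10 to 0.25), chemokines, cytokines and their receptors (-0.65 to -0.51), complement components and regulators (-1.37 to -0.93), Wnt ligands, receptors and antagonists (-0.30 to -0.17), hedgehog pathway and mesenchymal transcription factors (-0.13 to 0.050), pericyte markers (-2.01 to -1.43) and glia and neuron markers (-0.53 to 0.071). Of these, glia and neuron markers changed sign without knockout 3, and the hedgehog and transcription factor list without knockout 6.

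No paired analysis was possible because the 2 library sets share no replicate number and nothing was tested between them. Depth limits the lowest genes, such as Itgbl1 with 4 and 1 counts in knockout 5 and 6.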

Other observations

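Some genes were nearly all-or-none between libraries, and these were picked after their values were seen. Oaz1-ps, a pseudogene of ornithine decarboxylase antizyme, was at 0 CPM in each of knockout 1 to 4, at 18.6 and 6.20 CPM in knockout 5 and 6, and at 40.6 to 81.3 CPM in the controls. Atp6v0c-ps2, a pseudogene of a proton pump subunit, was at 16.2 CPM in knockout 3 and at 0 CPM in the other 5 knockout libraries. Both are pseudogenes, whose reads can be shared with the parent gene in expected counts.

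Control 6 held high levels of a pair of genes that were nearly absent from knockout 5 and 6. Angptl7, a secreted angiopoietin-like protein, was at 7.54 to 8.504 CPM in knockout 1 to 4, at 0.105 and 0.207 CPM in knockout 5 and 6, at 2.61 to 4.33 CPM in control 1 to 5 and at 135.9 CPM in control 6. Snhg11, a long noncoding RNA, was at 5.18 to 7.58 CPM in knockout 1 to 4, at 0.105 and 0.310 CPM in knockout 5 and 6, at 0.490 to 0.588 CPM in control 1 to 5 and at 11.2 CPM in control 6.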
